A study of Homo sapiens with 7 samples.

Results

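The regions described here are stretches of accessible chromatin that lay in an exon, in a 5′ or 3′ untranslated region (UTR) or just downstream of a gene and were more accessible after PHF19 knockdown. They were chosen by the deposited group means, as the regions of both deposited lists whose mean in the knockdown exceeded that in the control and whose deposited annotation began with exon, 5′ UTR, 3′ UTR or downstream, on all chromosomes. The rule found 226 of the 8815 listed regions, or 2.62% of the 8615 gained ones. They comprised 160 exon regions, 50 in 3′ UTRs, 14 in 5′ UTRs and 2 within 300 bp downstream of a gene.

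The assay was ATAC-seq, which reads out where a transposase can cut open DNA, and the cells were Kasumi-1, a cell line of acute myeloid leukaemia with a RUNX1-RUNX1T1 fusion. The knockdown group, shPHF19, had 3 libraries of cells given lentiviral PHF19 shRNA, and the control group had 4 libraries of cells given a scrambled shRNA, although the treatment field of the control labels reads WT. Both groups went through puromycin selection (2 µg/ml, from 48 hours after the shRNA, for at least 24 hours), and 10000 cells entered each library. Only 1 cell line was used. Nothing in the labels states that replicate libraries were grown separately, so the authors' FDR reflects the spread among these libraries alone, and that spread could be technical.

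PHF19 is a Polycomb-like accessory subunit of Polycomb repressive complex PRC2, which methylates histone H3 to keep genes silent. Its Tudor domain binds a methyl mark that covers the bodies of transcribed genes. Exons and UTRs are the stretches kept in the mature transcript, but the DNA under them can also hold enhancers, or starts of transcripts other than the annotated one.

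Every fold, mean read count and false discovery rate (FDR) below comes from the authors' deposited table. A mean is the authors' normalised read count averaged over the libraries of a group. A log2 fold is the authors' own fold of shPHF19 over control, and it is not the ratio of the printed means: all 226 deposited folds lay nearer 0 than the log2 ratio of the means, with medians of 0.98 for the fold and 1.49 for the ratio. No source used here says how the authors computed the fold. The lists carry no value per library, so no SD and no n stands beside a region, the depth per library is unknown, and whether libraries of the groups overlapped at a region was not analysed here. Direction and size of change chose the regions, so these values describe them and were not tested again. In the background, 16.4% of the 52675 regions tested by the authors were gained. What share of the tested regions lay in exons or UTRs is unknown here, and nothing is read from the number of members against that background.

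The myeloid microRNA gene MIR223 was the nearest gene of 1 exon region; it was singled out after its values were seen. miR-223 promotes granulocyte differentiation, and RUNX1-RUNX1T1 is known to silence its gene. The region covered exon 1 of a 3-exon transcript that the annotation leaves without a gene name, 3.26 kb upstream of the microRNA (chromosome X, 65235051 to 65235451, as deposited). In the authors' deposited table it averaged 21.5 reads in shPHF19 and 5.14 reads in control cells. The log2 means differed by 2.07 (shPHF19 minus control), and the deposited log2 fold was 1.51 (FDR 3.10e-04). The other gained region with MIR223 as nearest gene lay 91.9 kb away, with 28.5 reads in shPHF19 and 14.8 reads in control cells (log2 fold 0.75). The other microRNA genes nearest to a member were MIR4638, 4.03 kb from an exon region with a log2 fold of 0.94, and MIR4773-1, 4.23 kb from one in exon 2 of 6 of TNFAIP6, also with a log2 fold of 0.94 in the authors' deposited table. The mature sequences of these 3 genes, from RefSeq (GRCh38.p14), are shown 5′ to 3′ because these microRNAs have the nearest annotated starts. The regions themselves lie outside the annotated microRNA transcripts. Whether the unnamed transcript near MIR223 gives rise to that microRNA was not tested. Capitals mark the seed, bases 2 to 8, which pairs with target messages.
hsa-miR-223-3p: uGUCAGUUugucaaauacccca
hsa-miR-223-5p: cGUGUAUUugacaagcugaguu
hsa-miR-4638-3p: cCUGGACAccgcucagccggccg
hsa-miR-4638-5p: aCUCGGCUgcgguggacaagu
hsa-miR-4773: cAGAACAGgagcauagaaaggc
The 5 seeds are all different. No sequence of the accessible regions themselves is shown, since no genome of the deposited coordinates was used here.

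The 226 regions were weakly accessible in control cells. Their median was 19.6 reads in shPHF19 (interquartile range 12.8 to 30.5) and 6.90 reads in control cells (3.59 to 13.7). Over all libraries the mean was under 10 reads at 85 of them (37.6%), against 26.6% of the other 8389 gained regions, 50.4% of gained introns and 5.58% of gained promoters. In control cells 9 members (3.98%) lay at 1 read, the lowest value the lists hold, against 0.942% of the other gained regions. That share was 1.93% for gained introns, 1.78% for gained intergenic regions and 0.0926% for gained promoters. The members resembled gained introns, at 16.1 reads in shPHF19 and 5.28 reads in control cells, more than gained promoters, at 47.9 and 22.9 reads in shPHF19 and control cells. These differences between sets of regions were not tested.

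**Figure D1:**
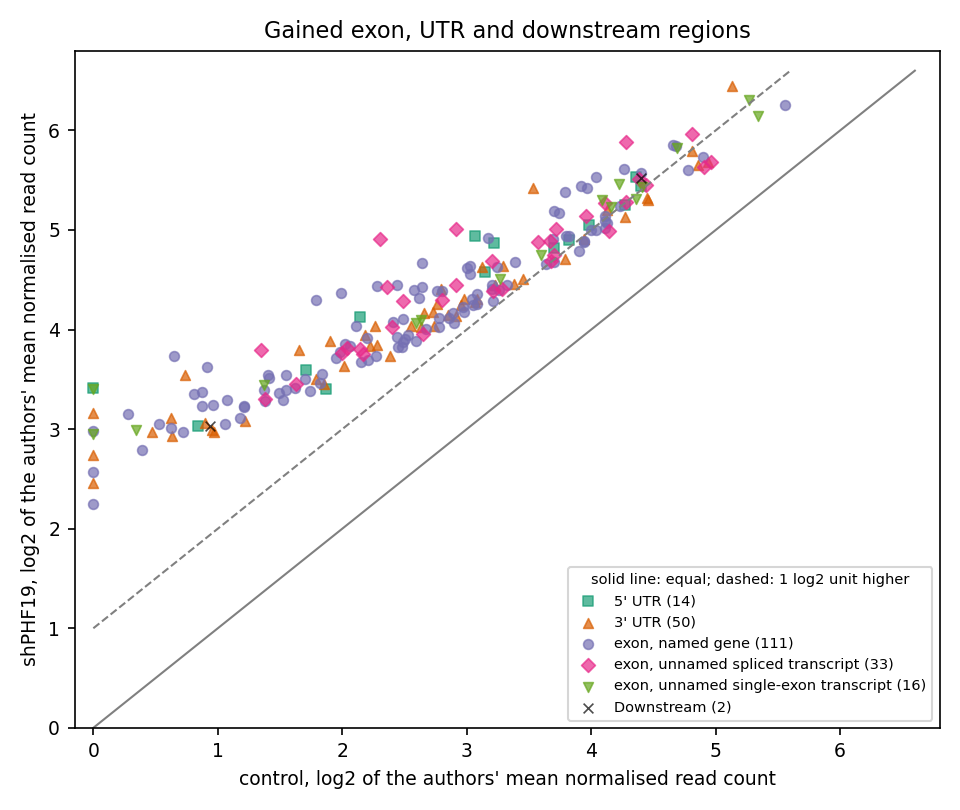
Authors' mean normalised read count (log2) of the 226 regions in shPHF19 (y axis) against control (x axis), 1 point a region, shape and colour by kind of feature. Every point lies above the solid line of equal means, as the rule requires, and the points at 0 on the x axis are the 9 regions at the floor of 1 read in control cells.

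Folds of the members ran from 0.61 to 2.01 on the log2 scale, with a median of 0.98 (interquartile range 0.89 to 1.14), beside a median of 0.97 for the other gained regions. A log2 fold of at least 1 was deposited for 103 members (45.6%), beside 43.3% of the other gained regions. An FDR of at most 0.01 was deposited for 80 members (35.4%), beside 46.1% of the other gained regions. Among those others, median folds were 0.89 in promoters, 1.03 in introns and 1.03 in intergenic regions. In the same order, 30.8%, 56.9% and 56.4% had a fold of at least 1. An FDR of at most 0.01 was deposited for 54.4%, 35.6% and 38.7% of them. Of all tested regions, 7.09% were gained at that fold and 7.50% at that FDR. Since members had to be gained and listed, their shares could not but exceed those of all tested regions, and nothing is read from that. Folds were larger where counts were low, with a median of 1.04 for the 85 members under 10 reads, 0.95 for the 80 from 10 to 20 reads and 0.88 for the 61 at 20 reads or more. In the same bands the other gained regions had medians of 1.05, 1.0 and 0.86. The smallest member fold in these bands was 0.88, 0.75 and 0.61. A region with few reads needs a larger fold to be listed, so nothing is read from this trend. At the edge of the list, the smallest deposited log2 fold was 0.61 and the largest FDR 0.0496 among members, and the closest lost exon region, in GGA3, had a log2 fold of −0.80. As differences of log2 means (shPHF19 minus control) these edges were 0.70 and −1.08. On the annotation side the closest member to a start lay 3.12 kb away, and the farthest gained promoter region 2.98 kb away.

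Not one exon region of a named spliced gene lay in exon 1. Of the 111 regions in exons of a named gene, 94 covered an internal exon, 16 the last exon, and 1 the only exon of the long noncoding RNA LINC01004. The annotation counts a region within 3 kb of a start as a promoter and not as an exon. Of those 111 regions, 97 lay in exons of protein-coding genes, 11 in exons of long noncoding RNAs and 3 in exons of transcribed pseudogenes. The other 49 exon regions (30.6% of 160) lay in transcripts without a gene name in the annotation, and exon 1 held 24 of the 33 in spliced transcripts and all 16 in single-exon transcripts. The distance to the nearest named start does not count the starts of these transcripts.

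Regions in unnamed transcripts were more accessible in both groups than those in named genes. The 16 in single-exon transcripts had a median of 32.1 reads in shPHF19 and 14.6 reads in control cells. In unnamed spliced transcripts the medians were 25.9 reads in shPHF19 and 9.27 reads in control cells, and in exons of named genes they were 18.0 and 6.14 reads. Median log2 folds were almost the same, at 0.99, 1.0 and 0.99. Internal exons were the weakest (16.6 reads in shPHF19, 5.63 reads in control cells), and last exons had 26.3 and 9.30 reads. In 5′ UTRs the median was 28.8 reads in shPHF19 and 9.10 reads in control cells, and in 3′ UTRs it was 17.7 and 6.66 reads. These differences were not tested, and the distributions overlap throughout.

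**Figure D2:**
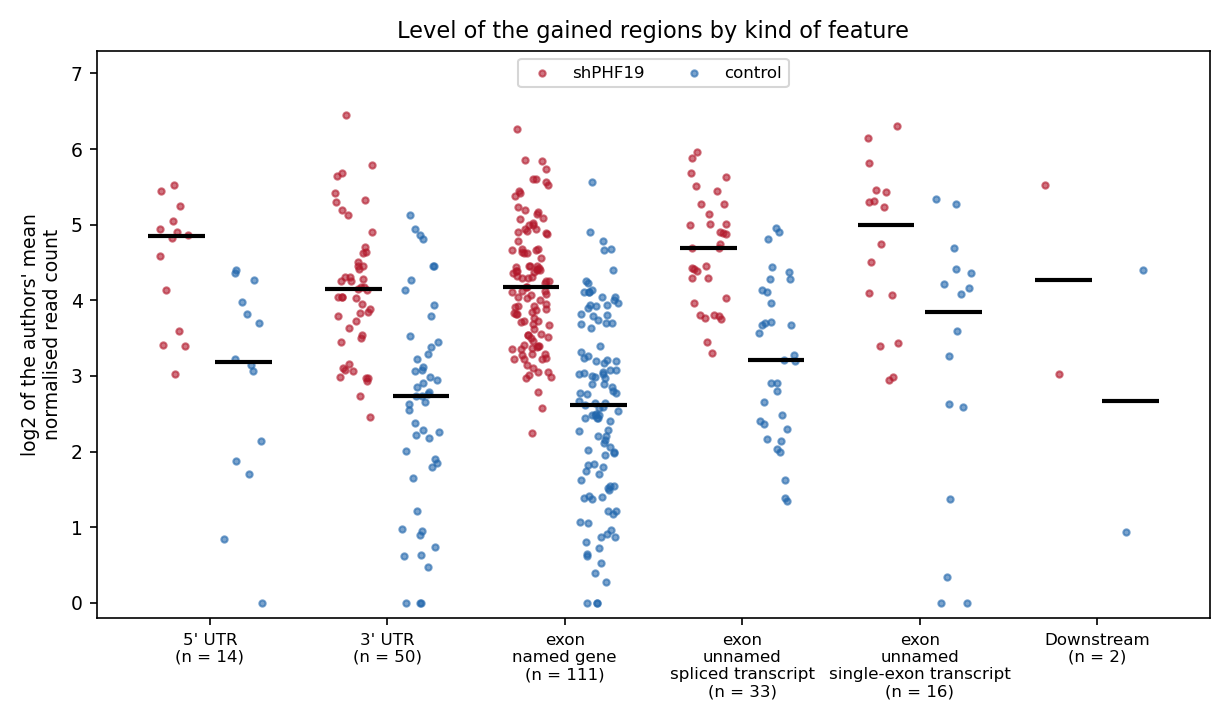
Authors' mean normalised read count (log2) of each region by kind of feature, shPHF19 left and control right, with a bar at the median. Medians are highest in single-exon transcripts without a gene name (32.1 reads in shPHF19, 14.6 reads in control) and the kinds overlap.

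Most regions in unnamed single-exon transcripts had a nearest gene with transfer RNA (tRNA) genes close by in gene order. RNA polymerase III transcribes tRNA genes from promoters inside the gene. For 12 of the 16 (75.0%), RefSeq places at least 1 tRNA gene among the 4 genes on either side of the nearest gene. The same held for 2 of 111 regions in named exons (1.80%), for 0 of 32 in unnamed spliced transcripts, for 0 of 66 UTR and downstream regions, and for 126 of 8365 other gained regions (1.51%). Neighbouring regions share tRNA clusters, so this is a description with no test. Gene order does not give the distance from a region to a tRNA gene or show that a region covers one. The regions near TRIM7 and MIR4638 lie in the same stretch of chromosome 5 and share 2 of these tRNA genes. Near TRIM7 the means were 43.9 reads in shPHF19 and 18.6 reads in control cells (log2 fold 1.03 in the authors' deposited table). The tRNA genes among the neighbours of TRIM7 are TRA-TGC3-1, TRK-CTT2-2, TRP-TGG3-1, TRT-TGT6-1 and TRV-AAC1-4. The highest in shPHF19 was near LRP3 on chromosome 19 (neighbour TRT-AGT1-3), with 79.6 reads in shPHF19 and 38.6 reads in control cells (0.92). In control cells the region near TRIM55 had more reads, at 70.7 reads in shPHF19 and 40.6 reads in control cells (0.69). That region was 1277 bp wide and the one near LRP3 401 bp, so their reads are not compared like for like. The lowest were near HSPA6 and FCGR3A on chromosome 1, which also share tRNA neighbours, with 7.75 and 7.97 reads in shPHF19 and 1 and 1.27 reads in control cells.

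**Figure D3:**
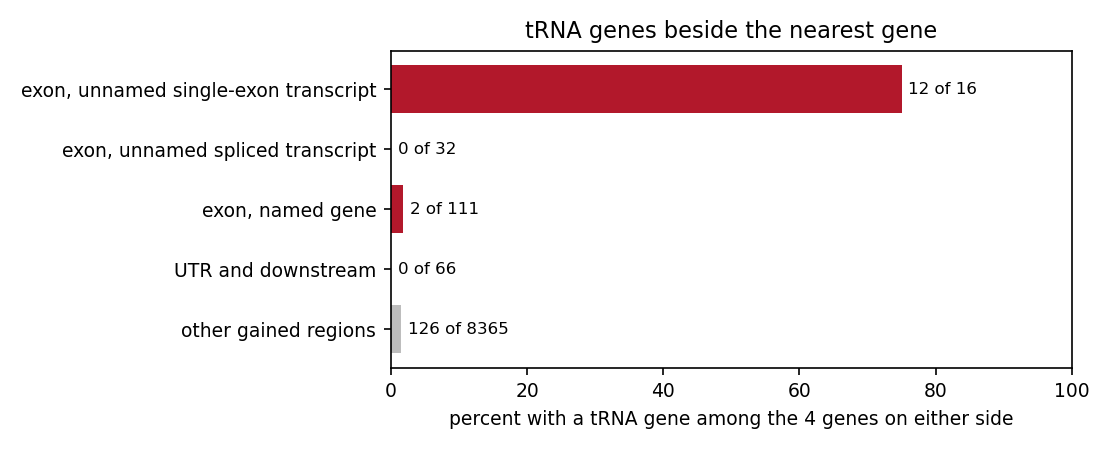
Percent of regions whose nearest gene has a tRNA gene among the 4 RefSeq genes on either side, by kind of region, with the counts. Regions in unnamed single-exon transcripts reach 75.0%, and every other set shown lies under 2%.

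The gene that holds the exon was not the gene of the nearest start at 24 of the 111 regions in named exons (21.6%). For 15 of those 24, the gene of the exon was the nearest gene of no listed region, so a count by nearest start misses it. SPI1 was among them. It encodes PU.1, the transcription factor that directs myeloid differentiation and that RUNX1-RUNX1T1 is known to bind. The region covered exon 3 of 5 of SPI1 (chromosome 11, 47381157 to 47381557, as deposited). It was filed under the zinc transporter gene SLC39A13, whose start is 4.16 kb away, and also lay inside the SLC39A13 transcript of that start. SLC39A13 was also the nearest gene of 1 gained promoter region. In the authors' deposited table the exon region averaged 35.3 reads in shPHF19 and 17.3 reads in control cells (log2 fold 0.86, FDR 0.0108).

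Other exons filed under a neighbour belong to EPHA1, an ephrin receptor (nearest start EPHA1-AS1, log2 fold 1.13), and to EIF2AK1, the haem-regulated kinase that slows translation (nearest start ANKRD61, 1.25). ENPP3, an ectoenzyme used as a basophil marker, was filed under CTAGE9 (1.31 in the authors' deposited table), and ITGBL1, a protein with integrin beta-like repeats, under FGF14 (1.16). TFAP2A, the developmental factor AP-2 alpha, was filed under its antisense gene and had the smallest log2 fold of all members, 0.61, with the largest mean among exon regions (76.5 reads in shPHF19, 47.2 reads in control cells). For UTR regions the annotation names no transcript. Of the 3′ UTR regions, 26 of 50 lay outside the transcript of the nearest start, 13 upstream of that start and 13 past the transcript, and of the 5′ UTR regions 5 of 14 did, all upstream. Gene names of those regions below are those of the nearest start. Only the transcript of that start was compared, so the UTR can still belong to another transcript of the same gene. Exon regions of AKAP9, for example, lay outside the transcript of the nearest AKAP9 start.

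Among transcription factors and chromatin regulators, PRDM13 had 2 regions. PRDM13 is a PR-domain factor of neural development and a developmental gene of the kind that PRC2 silences. Its 3′ UTR region averaged 42.9 reads in shPHF19 and 11.6 reads in control cells (log2 fold 1.55, FDR 9.85e-06), and exon 4 of 4, next to it, 42.8 and 15.7 reads (1.21, FDR 3.09e-04 in the authors' deposited table). Both lie at the 3′ end of the gene, and no promoter region of PRDM13 was listed as gained. AHR, a ligand-activated transcription factor, had a region in exon 10 of 11 with 13.3 reads in shPHF19 and 1.57 reads in control cells (1.63), and 4 further gained regions, all distal. USF3, a helix-loop-helix factor, gained its last exon, at 20.7 reads in shPHF19 and 3.98 reads in control cells (1.65), beside 2 promoter regions with smaller folds (0.83 and 0.80).

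HDAC9, a class II histone deacetylase, had 2 exon regions. Exon 3 of 4 averaged 7.87 reads in shPHF19 and lay at the floor of 1 read in control cells, so its fold of 1.16 rests on few reads. Exon 13 of 13 averaged 19.8 reads in shPHF19 and 8.25 reads in control cells (0.92 in the authors' deposited table). The gene also gained 2 promoter and 4 intron regions. ETV1, an ETS factor, had the most gained regions of any gene with a member, 10 in all, and its exon 6 of 10 averaged 14.4 reads in shPHF19 and 4.05 reads in control cells (1.21), close to the fold of its promoter (1.19). SOX9 and NR4A2 were nearest genes only, 90.1 and 8.86 kb from exons of unnamed transcripts (0.85 and 0.88). The transcript near NR4A2 has a single exon, and in gene order NR4A2 has a tRNA neighbour.

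Of the genes listed for leukaemia and for myeloid cells, RUNX1T1, SPI1, ETV1, NCF1 and FCGR3A had a member. RUNX1T1, the fusion partner, had a 3′ UTR region with 10.9 reads in shPHF19 and 3.61 reads in control cells (log2 fold 0.91, FDR 0.0485, near the threshold). The fusion gene keeps the 3′ part of RUNX1T1, so reads from fused and unfused copies are not told apart. NCF1, a subunit of the phagocyte NADPH oxidase, had a region in exon 10 of 11 with 35.9 reads in shPHF19 and 13.4 reads in control cells (1.17 in the authors' deposited table), but NCF1 has near-identical pseudogene copies, so the origin of its reads is uncertain. FCGR3A, an Fc receptor of monocytes and natural killer cells, was only the nearest gene of a region in an unnamed single-exon transcript. In gene order FCGR3A has tRNA neighbours.

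Several regions had a receptor or ligand gene as nearest gene but lay outside the transcript of its nearest start. The largest deposited log2 fold of all, 2.01, was at exon 2 of 3 of an unnamed transcript whose nearest gene was ADGRB3, an adhesion receptor, at a distance of 747 kb (30.1 reads in shPHF19, 4.91 reads in control cells, FDR 1.90e-06). Exon 1 of the same transcript, 746 kb from ADGRB3, had a log2 fold of 1.39 (59.1 reads in shPHF19 and 19.5 reads in control cells), so the 2 regions mark 1 locus far from any named start. NRG1, a ligand of ERBB receptors, was the nearest gene of exon 1 of an unnamed transcript 200 kb away (32.1 reads in shPHF19, 7.53 reads in control cells, 1.67). OSMR, the oncostatin M receptor, was nearest to a 3′ UTR region past the transcript of its nearest start (1.46, with 1.67 reads in control cells). Whether that region lies in another OSMR transcript was not examined.

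The interleukin receptor genes IL7R, in the 3′ UTR (log2 fold 1.07), and IL17RA, in exon 4 of 13 (1.25), each gained a region, as did the growth factor receptor IGF1R in exon 5 of 11 (1.08 in the authors' deposited table). IGF1R had 9 gained regions in all, 2 at promoters and 6 in introns. Integrin subunit genes, singled out after their values were seen, appeared with ITGA5 (1.06, exon 2 of 30), ITGB8 (0.95, 3′ UTR), ITGA1 (0.90, exon 15 of 29) and ITGA9 (0.88, exon 5 of 16). Integrins attach cells to the extracellular matrix. Integrin genes without a member were not counted, and 0.997% of all protein-coding genes had a member. No gain of the family is read from these genes. TGFBR2, a TGF-beta receptor, was nearest to a 3′ UTR region 598 kb upstream of it (0.95), which is not a UTR of that gene.

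AKAP9, a scaffold of protein kinase A, gained exon 23 of 50 (19.7 reads in shPHF19, 3.45 reads in control cells, log2 fold 1.69) and exon 22 (10.4 and 1.82 reads, 1.29), beside 2 promoter regions. CTTNBP2, a cortactin-binding protein, gained exon 4 of 23 (25.5 reads in shPHF19, 6.25 reads in control cells, 1.53). LPCAT1, which remodels membrane phospholipids, had regions in exon 9 of 14 (1.24) and exon 3 of 14 (0.76), and GOLIM4, a Golgi membrane protein, in exon 13 (1.13) and exon 7 (0.96) of 16. Exons 8 and 10 of 14 of ME3, a mitochondrial malic enzyme, were filed under CCDC81 (1.09 and 0.91 in the authors' deposited table). The synaptic vesicle gene SV2B (0.83 and 0.72), the muscle gene KY (0.75 and 0.73) and SPEN-AS1 (0.97 and 0.78, both exon 2 of 2) also had 2 regions each. Both KY regions were 3′ UTR regions, the first past the transcript of its nearest start. The 3′ UTR and exon regions nearest MTRNR2L6 had folds of 0.84 and 1.04, and RefSeq gene order places that gene among variable segments of the T cell receptor beta locus.

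In 5′ UTRs the largest folds were near SYT1, the calcium sensor of synaptic vesicles (log2 fold 1.45, 30.7 reads in shPHF19 and 8.39 reads in control cells), the kinase gene NIM1K (1.37) and TPRG1 (1.28). All 3 regions lay upstream of the nearest start, by 67.8, 30.4 and 39.2 kb. PEX5L (1.14), VWDE (1.07) and PELO, a ribosome rescue factor (1.01), followed, each within the transcript of the nearest start. PELO also had the largest mean of the class (46.2 reads in shPHF19, 20.5 reads in control cells). ELMO1, which acts in cell migration and engulfment, had a 5′ UTR region with 33.1 reads in shPHF19 and 15.8 reads in control cells (0.83 in the authors' deposited table) and 3 further gained regions.

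Of the 3′ UTR regions, those nearest ARHGAP36 (log2 fold 1.31) and UFM1, a ubiquitin-like modifier (1.24), lay at the floor of 1 read in control cells, with 8.94 and 6.68 reads in shPHF19. The regions nearest IFI44, an interferon-induced gene (1.30), and FBXO38, an F-box protein (1.23), lay outside the transcript of the nearest start. GPR137 was the nearest gene of the most accessible 3′ UTR region (87.5 reads in shPHF19, 34.9 reads in control cells, 1.14, FDR 1.50e-04). GPT2, an alanine aminotransferase, had the smallest fold of the class (0.63), and LIPC, hepatic lipase, was nearest to an exon region with a fold of 0.62. The 2 downstream regions lay past LINC01132 (0.97) and C4orf51 (0.95).

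**Figure D4:**
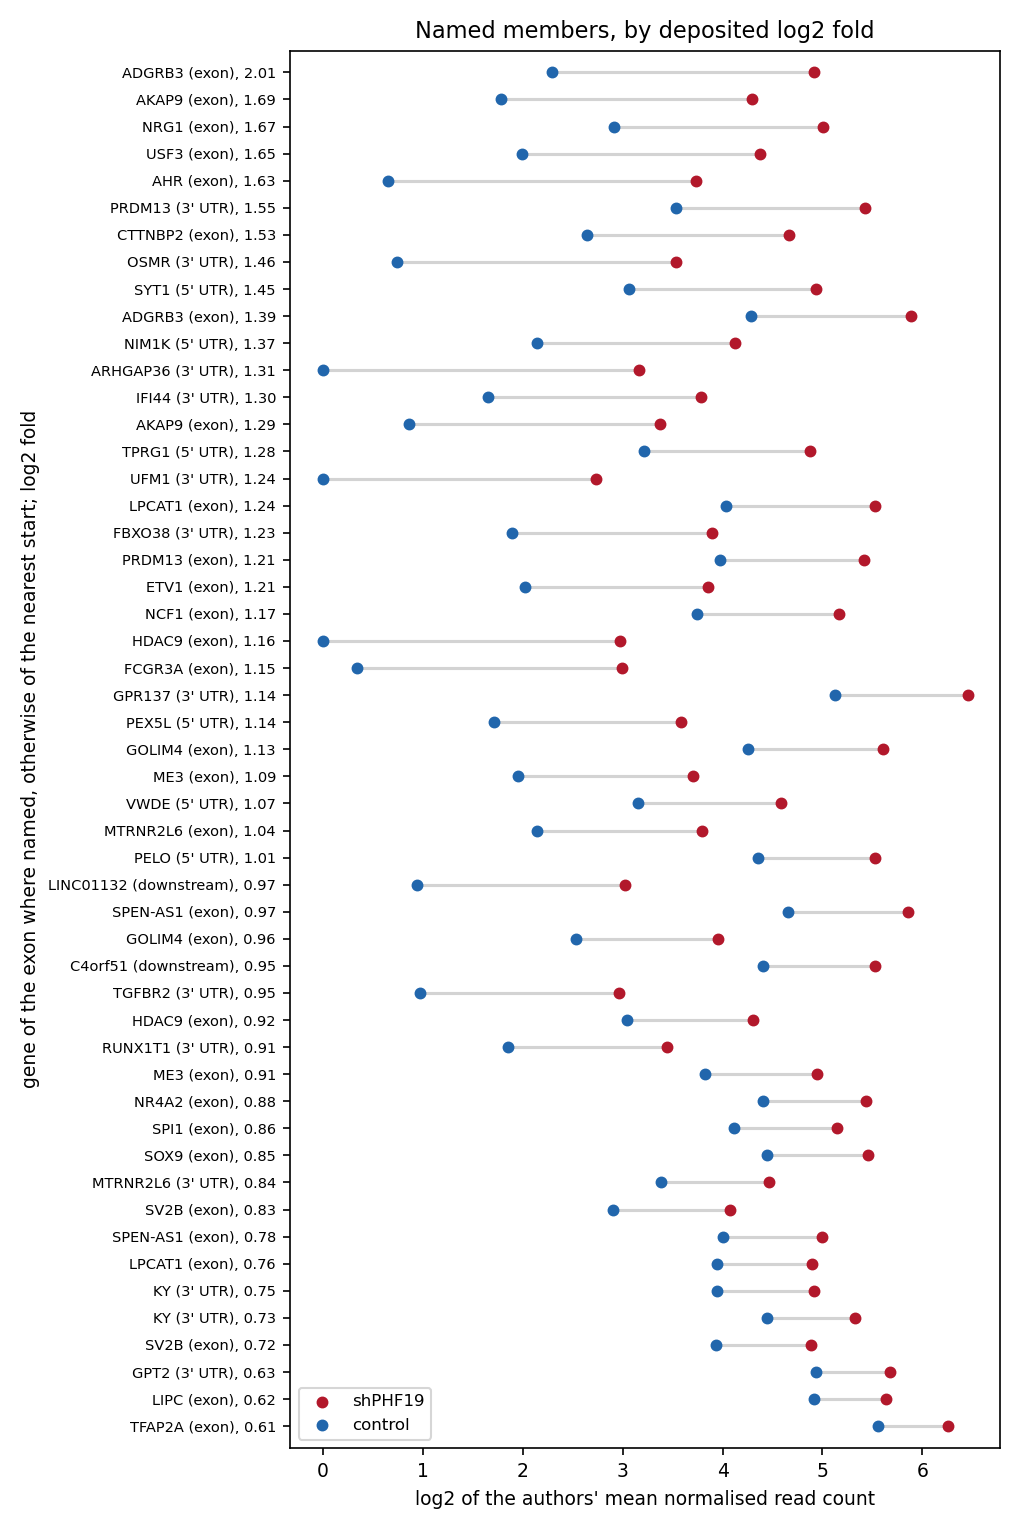
Authors' mean normalised read count (log2) in shPHF19 (red) and control (blue) for the 51 named regions, ordered by deposited log2 fold, given beside each name. The largest fold is 2.01 near ADGRB3 and the smallest 0.61 in TFAP2A, and 3 control means lie at 0 on the log2 scale.

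Of the 10 gene lists, 5 had a gene with a gained exon or UTR region. A gene was counted where it was the nearest gene of a member or held its exon, which 200 of 20056 protein-coding genes (0.997%) were. Of 46 haematopoietic progenitor and leukaemia genes 3 (6.52%) had a member (ETV1, RUNX1T1 and SPI1), although 26 were nearest to a gained region of any kind. Of 28 myeloid and monocyte differentiation genes 2 (7.14%) had one (NCF1 and FCGR3A) and 7 any gained region. The counts were 1 of 64 chromatin modifiers (HDAC9; 34 with any gained region), 2 of 66 developmental factors (PRDM13 and SOX9; 22) and 2 of 55 immediate early and signalling genes (NR4A2 and TGFBR2; 36). In 5 lists no gene had a member, namely the 37 PRC1 and PRC2 subunits (16 with any gained region), 56 neuronal genes (35), 34 ribosomal protein and translation genes (18), 22 lymphocyte markers (1) and 19 erythroid and megakaryocyte markers (2). Over all protein-coding genes 25.2% were nearest to a gained region. A list without a member speaks only for the genes it holds. The synaptic vesicle genes SYT1 and SV2B, which are outside the neuronal list, were nearest to members. No list test was run.

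About as many members stood alone at their gene as had company there. At 117 of the 226 (51.8%) the nearest gene had another gained region, against 66.1% of gained introns and 69.3% of gained intergenic regions. The nearest gene also had a gained promoter at 50 members (22.1%), against 30.5% of gained introns and 30.4% of gained intergenic regions, and a gained intron at 59 (26.1%). At no member did the nearest gene also have a lost region, against 12 of 1765 gained introns (0.680%). The next gained region lay a median of 47.4 kb away (interquartile range 15.4 to 124), against 57.9 kb for the other gained regions, and within 10 kb at 44 members (19.5%), against 21.8%. None of these differences was tested.

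Members lay a median of 20.4 kb from the nearest start (interquartile range 9.69 to 50.4 kb), and 21 lay beyond 100 kb. Gained introns lay at a median of 36.1 kb. Regions in unnamed spliced transcripts were the farthest kind (65.7 kb), and those in 3′ UTRs the closest (14.0 kb). A width of 401 bp, the narrowest in the lists, was shared by 208 members (92.0%) and by 92.5% of the other gained regions, so the fold of a member refers mostly to a window of fixed size that can extend past the exon.

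Chromosome 7 held the most members, 33 (14.6%), beside 12.0% of the other gained regions. Chromosomes 3 (28 members, 12.4%) and 5 (24, 10.6%) followed, beside 10.0% and 8.90%. Chromosome 6 held 17 (7.52%, beside 4.70%) and chromosome 15 held 14 (6.19%, beside 4.02%), whereas chromosome 9 held 2 (0.885%, beside 3.27%) and chromosomes 14 and 20 held 0, beside 2.53% and 0.954%. The order of the chromosomes largely followed that of the other gained regions, and the differences were not tested. AKAP9, AHR, CTTNBP2, ETV1, HDAC9, NCF1 and EPHA1 lie on chromosome 7.

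**Figure D5:**
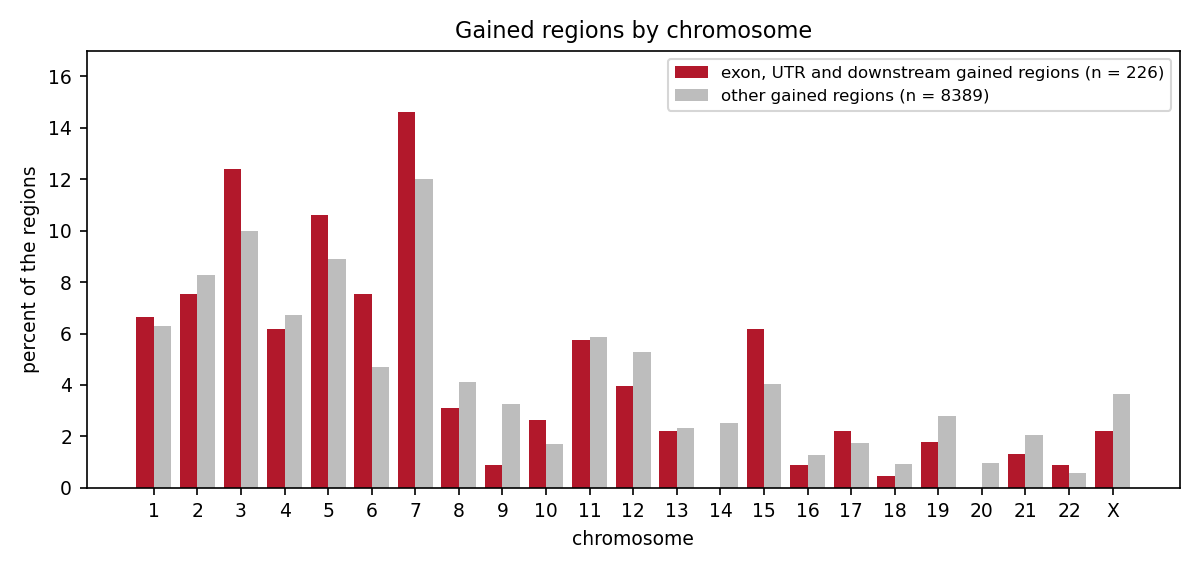
Percent of the 226 gained exon, UTR and downstream regions (red) and of the 8389 other gained regions (grey) on each chromosome. Chromosome 7 is highest in both sets, at 14.6% and 12.0%.

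Of 244 listed regions of these classes 226 (92.6%) were gained, against 97.9% of the 8571 others. The share follows from the rule's own contrast and was not tested.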

How the data were processed

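ATAC-seq of 3 shPHF19 and 4 control libraries of Kasumi-1 cells was summarised by the authors in a pair of region lists. Per the file headers, these hold log2 means of normalised reads (all libraries, and each group), the log2 fold change, a p-value and an FDR, all computed by the authors. MACS2 2.2.6, Bowtie2 2.4.1, deepTools 1.5.12 and Picard 2.2.4 were listed without role or setting, per the submitters' processing notes. How reads were normalised, shifted for the transposase or merged into regions is not given in the sources used here, and folds depend on it. The knockdown column was identified as the higher one in the list of increased regions, and its weight in the overall mean, 0.429, equalled 3 of 7 libraries.

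The notes name build hg38, but only 0.0910% of deposited gene starts equalled those of GRCh38.p14, and on 13 chromosomes a region lay past its last gene. Positions are printed as deposited (1-based, read as hg19), and the RefSeq table served for names, gene types and gene order only (99.7% of regions matched).

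Regions were selected and counted with Python 3.11.15, pandas 2.3.3 and numpy 2.4.6 (figures, matplotlib 3.10.9), and the annotation reader was tested on simulated data. The number of regions tested was derived from p-value, rank and FDR of the 3000 smallest p-values. Means in reads are 2 to the power of the deposited log2 values. No test was run, since values per library were not analysed here and regions are not independent replicates. Named members were the 6 of largest fold per class, the 3 of smallest fold, the largest mean per class, both downstream regions, genes with 2 or more members, and up to 3 per gene list. MIR223, the integrins and other genes outside this rule were chosen after their values were seen. Members and lists were chosen with earlier results of these data known. Alternatives were an FDR of at most 0.01, an absolute log2 fold of at least 1, a mean of at least 10 reads, no chromosome 7, no exon 1, the difference of group means, and the gene of the exon.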

Additional observations from a re-analysis of the deposited data

How the results depend on the processing

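The members numbered 80 with an FDR of at most 0.01, 103 at absolute log2 folds of 1 or more and 141 with a mean of at least 10 reads, beside 226 in all. The median log2 fold was 1.21, 1.15 and 0.92 under these settings, and 1.49 as the difference of the log2 group means. The median mean count was 15.6, 10.0 and 18.1 reads. Members with another gained region at their gene fell to 35.0%, 37.9% and 44.7%, by construction in part, since fewer regions were counted. The share of gained regions was 2.02% at the stricter FDR and 2.24% with at least 10 reads, the share of exon regions in exon 1 was 33.3% and 33.7% (25.6% in all), and chromosome 7 held 20.0% at the stricter FDR. Genes of the lists numbered 5 by the gene of the exon and 9 by nearest start. The other 20 of 39 alternatives stayed within the 95% binomial interval of the reported value or 1.5 times the count. They included every one for the gene of the exon against the nearest gene and for the distance to the start. That interval served only as a yardstick. The alternatives reuse the same regions, and regions are not independent replicates, so staying within it is no test. No paired analysis was possible because the lists hold no value per library, and no replicate was left out for the same reason. Low counts limit the precision, with 85 members under 10 reads.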

Other observations

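Lost regions of the same classes numbered 18, with log2 folds from −1.36 to −0.80 in the authors' deposited table. The largest decrease was in a 3′ UTR near CYB561, a cytochrome b561 (4.66 reads in shPHF19, 18.8 reads in control cells). UNC13D, which acts in the release of cytotoxic granules, lost an exon region (13.8 reads in shPHF19, 31.8 reads in control cells, log2 fold −0.96). RREB1, a zinc finger factor, lost one too (−0.87). The RREB1 region had 3.82 reads in control cells and lay at the floor of 1 read in shPHF19, so its fold rests on few reads. Other lost regions also lay at that floor. Chromosomes 12 and 17 held 4 each of these 18 regions, and 9 and 5 of the 226 gained ones.

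Of regions filed under another gene, the lost ones included SCRIB, a cell polarity gene, under MIR937 (−1.01 in the authors' deposited table). ATP6V0A2, a proton pump subunit, was filed under DNAH10 (−1.31). The ATP6V0A2 region lay at the floor of 1 read in shPHF19, with 7.68 reads in control cells. The haem pathway enzyme CPOX gained a region in exon 5 of 7 (log2 fold 0.93). RHAG, a membrane protein of red cells, gained one in exon 8 of 10 (0.90). None of the 19 erythroid and megakaryocyte markers had a member, beside 0.997% of all protein-coding genes. No erythroid gain is read from CPOX and RHAG. The genes named here were chosen after their values were seen.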
